A study of Mus musculus with 8 samples.

Results

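The comparison described here sets C2C12 myotubes with Baf60c knocked down against control myotubes, both kept at a low glucose concentration. It uses 4 of the 8 arrays of the series, 2 per group, chosen by their sample titles. C2C12 is an immortalised mouse myoblast line that fuses into multinucleated myotubes in culture. The knockdown cells were transduced as myoblasts with a retrovirus carrying an shRNA against Baf60c (gene symbol Smarcd3), differentiated, and held for 12 h at 1 mM glucose before total RNA was extracted. Control cells carried a retrovirus with a scrambled shRNA and were otherwise handled alike, so both groups were transduced and differentiated. The same pair of cell populations held at 10 mM glucose (2 arrays each) served as a second reading of the knockdown in separate samples and added to the estimate of the replicate spread. The design text calls the replicates independent. How many hairpins were used, and whether replicates came from separate transductions, is not stated in the labels. Because the virus entered before differentiation, the comparison covers myotube formation as well as the 12 h in 1 mM glucose.

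Baf60c is a subunit of the SWI/SNF (BAF) chromatin remodelling complex, where it stands in place of its relatives Baf60a (Smarcd1) or Baf60b (Smarcd2). In muscle precursors it binds MyoD and marks muscle loci for remodelling when differentiation begins. In mouse skeletal muscle it has also been linked to the glycolytic fibre programme and to AKT activity through Deptor, an inhibitor of mTOR. Differentiation itself proceeds from the myogenic transcription factors, through cell fusion, to the sarcomere proteins, the calcium release machinery and the synaptic receptors of the mature fibre.

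Expression was given as log2 values, on which a difference of 1 is a 2-fold difference. Across genes, which are no replicates of each other, replicate arrays correlated at r = 0.987 in knockdown cells and 0.988 in control cells, and a knockdown with a control array at 0.977 to 0.983. Of the variance of these 4 arrays, 52.5% lay on a first principal component that separated knockdown from control. The next, with 25.4%, separated the 2 knockdown arrays from each other. The myotube markers Myog, Myh3, Ckm, Acta1, Tnnt3, Ttn, Mymk and Chrna1 were present, with means in knockdown cells of 3.92 (Ckm) to 10.5 (Acta1) and in control cells of 5.55 (Ckm) to 11.3 (Acta1), all above the filter on dim genes at 2.30. The median standard error (SE) of a log2 change was 0.173, which gives a 95% confidence interval of 0.406 to either side. Each error below is the SE of limma's log2 change (n = 2 arrays in each group), and a gene was called at a Benjamini-Hochberg adjusted p under 0.05 over all tested genes.

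The knockdown target was lower in both knockdown arrays. Smarcd3 is represented by a probe set that is also assigned to Chpf2, a chondroitin polymerising factor. It read 3.01 and 2.77 in knockdown cells, against 5.62 and 5.40 in control cells. The groups lay far apart, and the difference was -2.62 ± 0.22 (6.15-fold lower, limma adjusted p = 0.00313). The share of each gene in this signal was not resolved, and the knockdown level was near the dim end of the scale. The other members of the family were not called. Smarcd1 differed by 0.34 ± 0.25 (95% interval -0.26 to 0.93) and Smarcd2 by 0.10 ± 0.17 (-0.29 to 0.49).

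More genes were called lower than higher in knockdown myotubes, among them 32 of 66 tested sarcomere genes and 10 of 27 of calcium handling. The gene lists were chosen with earlier results of these data known. Of 13308 genes tested, limma called 199 (1.50%), of which 167 (1.25%) were lower and 32 (0.240%) higher in knockdown cells. After median centring of the arrays 150 genes were lower and 48 higher, and without the filter on dim genes 125 lower and 13 higher. Of the 199, 147 (1.10% of genes tested) differed by at least 2-fold, 131 of them lower and 16 higher. The median over all tested genes was -0.03 and 54.4% of genes were negative. Replicates did not overlap between groups for all 199 called genes, and for 47.1% of all genes tested. Calling depended on single arrays and on the replicate spread of the whole series. Each count for a fit on fewer arrays, here and below, takes all genes or list members called in that fit. Such a count can include genes that the main fit did not call. Without control replicate 1 at 1 mM 60 genes were called, and 30 without control replicate 2. Without knockdown replicate 1 the count was 111, and 78 without knockdown replicate 2. Fitted on the 4 arrays at 1 mM alone, 22 genes were called, all lower.

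**Figure D1:**
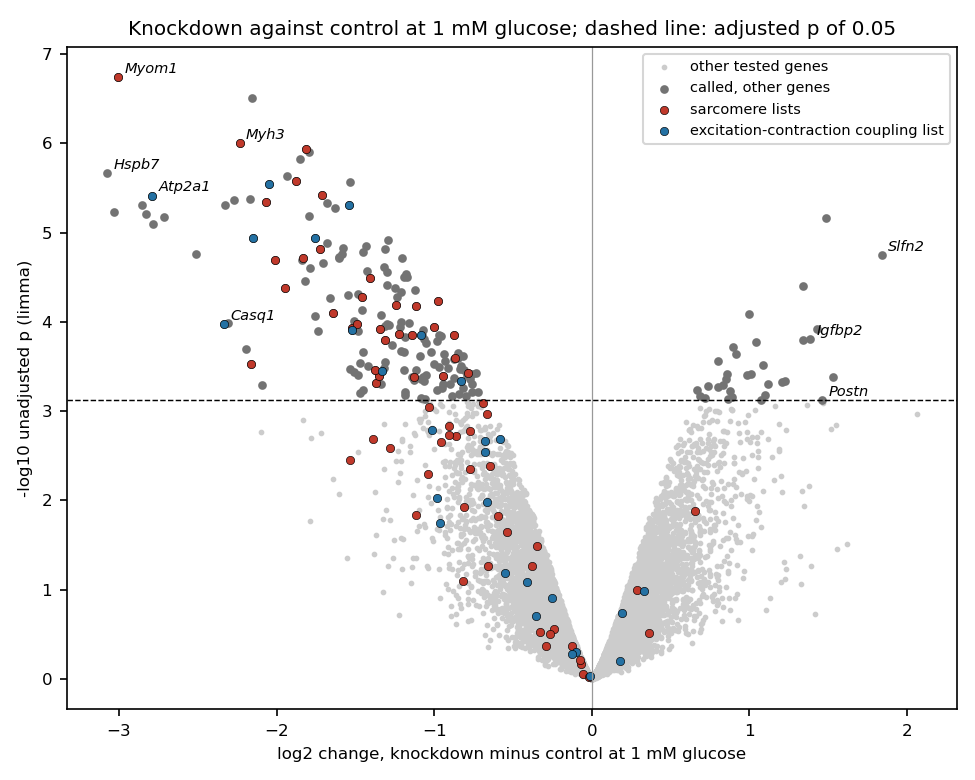
Log2 change, knockdown minus control at 1 mM glucose (x axis), against -log10 of the unadjusted limma p (y axis) for the 13308 tested genes, one point per gene. Genes of the sarcomere lists are red and those of the excitation-contraction coupling list blue. Called genes lie above the dashed line, 167 to the left of 0 and 32 to the right.

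The largest fall was that of Hspb7, a small heat shock protein of heart and skeletal muscle. It read 4.23 and 3.82 in knockdown cells, against 7.05 and 7.16 in control cells, a difference of -3.07 ± 0.23 (8.43-fold lower, adjusted p = 0.00313). Ablim3, an actin-binding LIM protein, read 3.56 and 2.91 in knockdown cells, against 6.20 and 6.32 in control cells (-3.03 ± 0.26). In both genes the knockdown arrays lay more than 2 log2 units under the control arrays. Hspb7 was the 1 call among 13 tested small heat shock proteins (median -0.13).

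Myom1 encodes myomesin 1, which links myosin filaments at the M-band. It read 3.16 and 3.02 in knockdown cells, against 5.98 and 6.22 in control cells (-3.00 ± 0.16, adjusted p = 0.00207). Mb, the oxygen-binding myoglobin, read 3.62 and 4.30 in knockdown cells, against 6.60 and 7.04 in control cells (-2.85 ± 0.24). Pygm, the glycogen phosphorylase of muscle, read 4.21 and 4.81 in knockdown cells, against 7.10 and 7.57 in control cells (-2.83 ± 0.25). The groups were separated by more than the distance between replicates in each of the 3 genes.

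Atp2a1, the SERCA1 pump that returns calcium to the sarcoplasmic reticulum, read 5.37 and 4.89 in knockdown cells, against 7.77 and 8.07 in control cells (-2.79 ± 0.23). Pgm5, an adhesion protein related to phosphoglucomutase, read 5.37 and 4.62 in knockdown cells, against 7.56 and 7.99 in control cells (-2.78 ± 0.25). Cd36, a fatty acid transporter, read 2.65 and 3.21 in knockdown cells, against 5.74 and 5.55 in control cells (-2.71 ± 0.24), with a knockdown mean under 3, a level treated here as dim. Leaving the target aside, the other genes among the 15 largest falls were Fxyd6, Casq1, Hjv, Afap1l1, Kcnn3, Myh3 and Art1, between -2.51 and -2.19. Fxyd6 regulates the sodium pump, Hjv is the BMP co-receptor hemojuvelin, and Art1 is an ADP-ribosyltransferase of the muscle surface. Fxyd6, Afap1l1 and Art1 also had a knockdown mean under 3. Of the 15, 11 were called whichever of the 8 arrays was left out. Fxyd6, Afap1l1, Casq1 and Art1 were not. Counted over all 199 calls, 28 were called whichever array was left out, 27 of them lower, and 29 had a mean under 3 in either group.

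**Figure D2:**
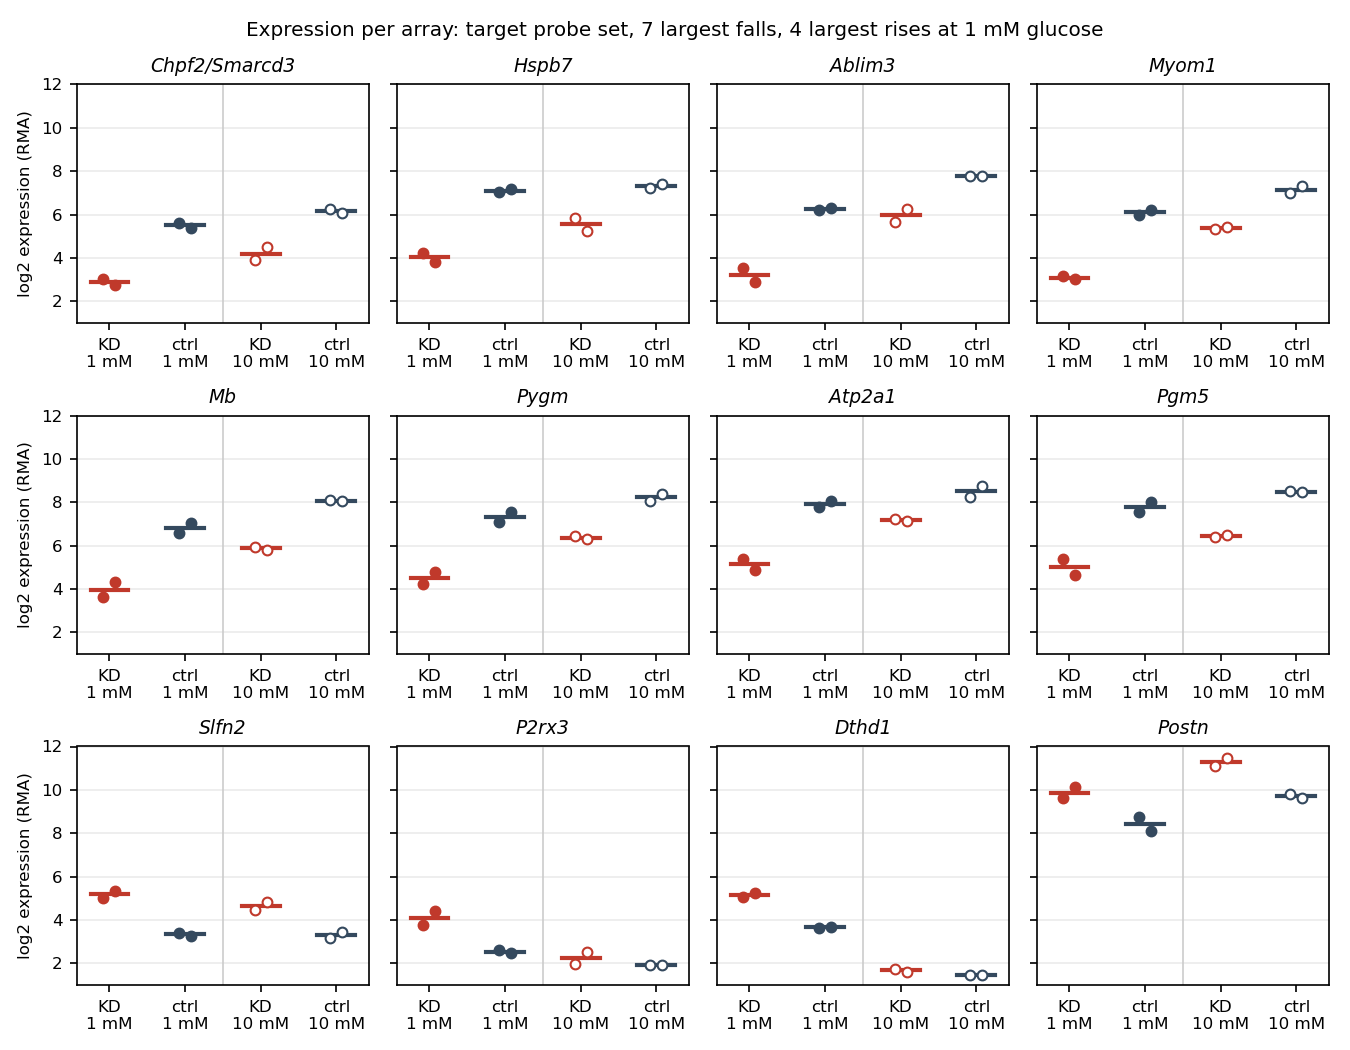
Log2 expression (y axis) on each array for the target probe set, the 7 largest falls and the 4 largest rises at 1 mM, with knockdown (KD, red) left of control (ctrl, blue) at each glucose level. Filled points are 1 mM, open points 10 mM, and bars are the means of 2 arrays. At 1 mM the 2 knockdown points of each gene lie wholly below or wholly above the 2 control points.

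Promoters are shown for 4 of the 5 largest falls and 2 of the 3 largest rises, so that promoters of genes moving in both directions can be read side by side. They are RefSeq windows of build GRCm38.p6, from 250 bases before to 50 after the annotated start, on the gene's strand, with matches to the searched motifs in capitals. The windows are Hspb7 at chr4:141420529-141420828 (plus strand), Myom1 at chr17:71019307-71019606 (plus strand), Mb at chr15:77022738-77023037 (minus strand), Pygm at chr19:6384158-6384457 (plus strand), Slfn2 at chr11:83064862-83065161 (plus strand) and Dthd1 at chr5:62811406-62811705 (plus strand). Mb has other annotated starts, and this window was picked because it holds a match. An overlapping window of another start holds the same match (at -193 there), and a further start holds none.
Hspb7: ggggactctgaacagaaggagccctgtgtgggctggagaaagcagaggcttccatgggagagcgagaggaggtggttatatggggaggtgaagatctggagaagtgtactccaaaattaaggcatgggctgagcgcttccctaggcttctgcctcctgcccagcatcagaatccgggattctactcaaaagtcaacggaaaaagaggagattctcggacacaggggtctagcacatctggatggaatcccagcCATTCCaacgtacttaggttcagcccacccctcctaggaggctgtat
Myom1: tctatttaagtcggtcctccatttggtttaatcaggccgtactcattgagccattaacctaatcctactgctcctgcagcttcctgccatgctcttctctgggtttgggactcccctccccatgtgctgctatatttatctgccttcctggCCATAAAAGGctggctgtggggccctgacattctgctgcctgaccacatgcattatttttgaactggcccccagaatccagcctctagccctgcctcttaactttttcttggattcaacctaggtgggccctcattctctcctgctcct
Mb: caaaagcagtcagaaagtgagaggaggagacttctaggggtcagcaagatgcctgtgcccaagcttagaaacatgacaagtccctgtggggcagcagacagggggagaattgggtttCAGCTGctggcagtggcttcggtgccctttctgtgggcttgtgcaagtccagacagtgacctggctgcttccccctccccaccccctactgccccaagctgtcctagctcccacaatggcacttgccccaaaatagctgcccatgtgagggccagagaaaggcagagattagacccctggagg
Pygm: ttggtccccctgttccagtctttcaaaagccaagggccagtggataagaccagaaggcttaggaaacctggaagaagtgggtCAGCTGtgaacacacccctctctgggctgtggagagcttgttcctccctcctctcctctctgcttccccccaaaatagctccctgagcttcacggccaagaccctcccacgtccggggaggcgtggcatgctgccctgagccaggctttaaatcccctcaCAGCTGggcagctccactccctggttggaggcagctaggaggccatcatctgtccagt
Slfn2: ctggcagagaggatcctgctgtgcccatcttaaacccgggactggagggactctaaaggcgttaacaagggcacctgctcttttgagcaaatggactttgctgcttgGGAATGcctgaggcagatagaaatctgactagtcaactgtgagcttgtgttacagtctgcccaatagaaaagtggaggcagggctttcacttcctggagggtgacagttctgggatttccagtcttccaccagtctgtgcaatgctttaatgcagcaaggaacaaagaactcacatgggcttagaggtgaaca
Dthd1: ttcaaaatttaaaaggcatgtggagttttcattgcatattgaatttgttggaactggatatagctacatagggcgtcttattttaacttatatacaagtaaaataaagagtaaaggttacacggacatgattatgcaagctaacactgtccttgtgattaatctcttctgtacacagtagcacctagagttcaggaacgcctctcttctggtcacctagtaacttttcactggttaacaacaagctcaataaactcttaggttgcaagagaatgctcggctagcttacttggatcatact
The 4 motifs searched are elements bound by muscle regulators, and they were read on both strands: the E-box CAGCTG, the M-CAT element CATTCC, a MEF2 site and a CArG box. CAGCTG is read the same on both strands and stands in Mb (at -133 from the start) and in Pygm (at -168 and -8). CATTCC stands in Hspb7 at 4 and, as its reverse complement, in Slfn2 at -143, and a CArG box lies in Myom1 at -99. Dthd1 held no match. CAGCTG was in 29.3% of 184 windows of genes called lower, in 10.7% of 28 windows of genes called higher, and in 16.1% of 13125 windows of all tested genes. CATTCC was in 20.7%, 7.14% and 12.2% of the same windows. The MEF2 site was in 2.17% of the windows of genes called lower, 0% of those called higher and 0.457% of all tested, and the CArG box in 4.35%, 0% and 1.36%. Each annotated start was counted as its own window (the 184 belong to 133 genes), so a match in overlapping windows counts more than once. These are matches of letters in a short window, with no test attached.

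The sarcomere genes held the largest group of falls. Of 66 tested genes of thick filament, thin filament, and Z-disc, M-band and titin, 32 fell and 0 rose, where 1.25% of all genes fell, and their median change was -0.99, against -0.03 for all genes. Of 14 tested thick filament genes, 7 fell (median -1.31), among them the embryonic, perinatal and adult fast myosin heavy chains. Myh3, embryonic myosin, read 7.72 and 7.55 in knockdown cells, against 9.73 and 10.01 in control cells (-2.23 ± 0.15). Myl4, the embryonic and atrial light chain, changed by -1.81, Myh1, a fast heavy chain, by -2.01, and Myh8, the perinatal heavy chain, by -2.06. Myh7, the slow heavy chain, changed by -1.71. Myh7 and Myh8 had a knockdown mean under 3, and a second, dimmer probe set of Myh8 differed by 0.13.

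Of 20 tested thin filament genes 13 fell (median -1.08). Neb, the giant ruler protein nebulin, changed by -1.87 ± 0.15, cardiac actin Actc1 by -1.83 and fast troponin C (Tnnc2) by -1.73. Cardiac troponin T (Tnnt2), which is present in embryonic skeletal muscle, changed by -1.46, and leiomodin 2 (Lmod2), an actin nucleator, by -1.12. Of 32 tested Z-disc, M-band and titin genes 12 fell (median -0.89), with Actn2 (alpha-actinin 2) at -1.94, Myoz2 at -1.41, Smyd1 at -1.24 and Smpx at -0.98 besides Myom1. Smyd1 is a muscle methyltransferase that assists myosin assembly. Ttn, the giant spring protein titin, changed by -1.14, and skeletal actin Acta1 by -0.79, the smallest of the 32 falls (both named after their values were seen). The 32 falls became 11 without control replicate 1, 6 without control replicate 2, 13 without knockdown replicate 1 and 15 without knockdown replicate 2, all at 1 mM, and 6 on the 4 arrays alone. Those called whichever array was left out were Myh3, Myh7, Myh8, Myl4, Myom1 and Neb.

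**Figure D3:**
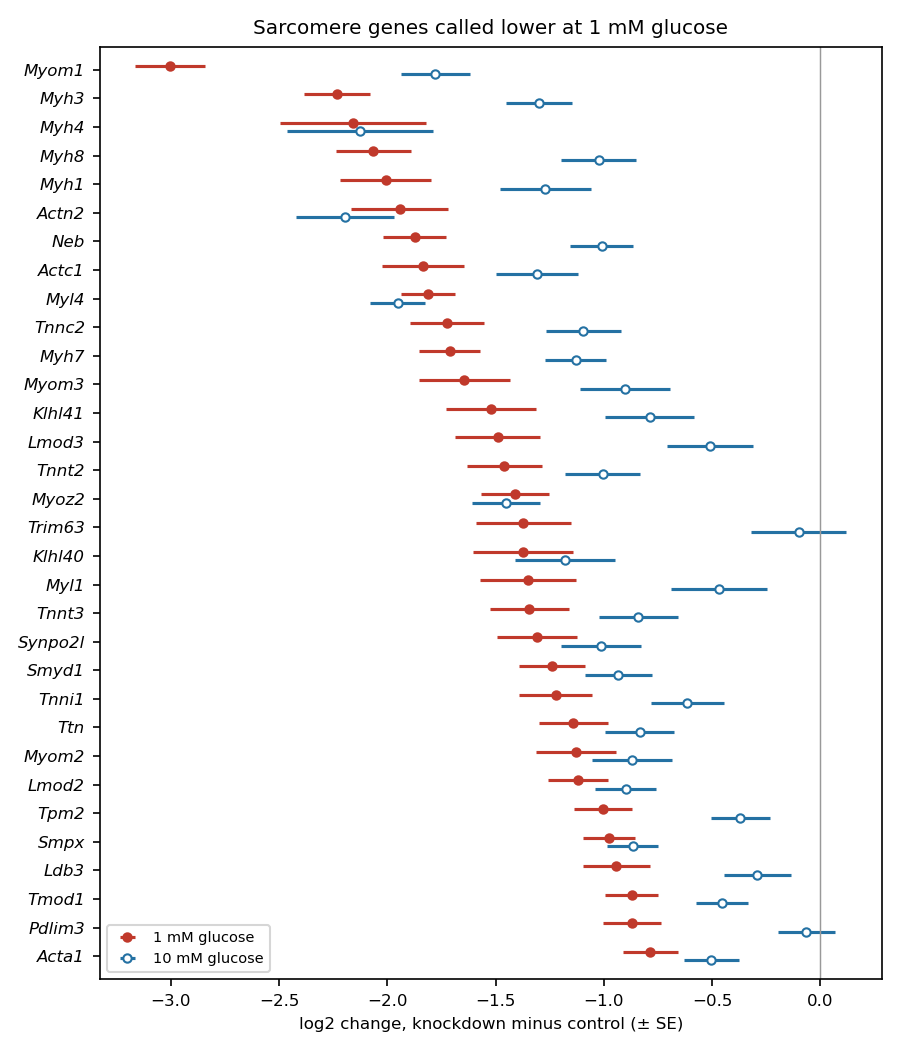
Log2 change, knockdown minus control (x axis, ± SE), of the 32 sarcomere genes called lower at 1 mM, at 1 mM (filled red) and at 10 mM (open blue). All points at both glucose levels lie left of 0.

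The calcium release machinery fell in part. Of 27 tested genes of excitation-contraction coupling and calcium handling 10 fell (median -0.68) and 0 rose, where 1.25% of all genes fell. Srl, the sarcoplasmic reticulum protein sarcalumenin, changed by -2.05, the release channel Ryr1 by -1.54 ± 0.13, triadin (Trdn) by -2.15 and the voltage sensor Cacna1s by -1.76. A second, dim probe set of Ryr1 read 2.32 in knockdown cells and 2.61 in control cells. Casq1, the calcium store protein calsequestrin, read 4.65 and 5.13 in knockdown cells, against 6.98 and 7.46 in control cells (-2.33 ± 0.31). The 10 falls became 5 without control replicate 1, 3 without control replicate 2, 5 without knockdown replicate 1 and 8 without knockdown replicate 2 at 1 mM. Of 9 tested genes of membrane excitability and the ATP-sensitive potassium channel, Kcnn3, a calcium-activated potassium channel, was the 1 that fell, and it read 3.89 and 3.78 in knockdown cells, against 5.85 and 6.36 in control cells (-2.27 ± 0.19).

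Part of the neuromuscular junction list fell as well. Of 18 tested genes 6 were lower (median -0.41), with 0 higher, against 1.25% lower over all genes. They included the acetylcholine receptor subunits Chrng (-1.60), the embryonic gamma subunit, and Chrnb1 (-1.16). The agrin receptor kinase Musk (-1.19), its activator Dok7 (-1.21) and the neuregulin receptor Erbb3 (-1.48) were also among them. The receptor subunit Chrnd was called lower too (-0.79, named after its value was seen), but in 0 of the 8 fits without 1 array. The 6 calls became 3 and 0 without control replicates 1 and 2, and 2 without either knockdown replicate at 1 mM. In the dystrophin-glycoprotein complex 2 of 16 tested genes fell, the sarcoglycan Sgca, which read 4.62 and 4.75 in knockdown cells, against 6.84 and 6.85 in control cells (-2.16 ± 0.12), and the laminin chain Lama2 (-1.17), with a median of -0.28. Among 24 tested genes of fusion and membrane repair 3 fell (median -0.33), again against 1.25% of all genes. Trim72, a membrane repair protein, changed by -1.79, the fusogen Mymk by -1.25 and the laminin receptor Itga7 by -0.97. Mymk read 9.34 and 9.52 in knockdown cells, against 10.57 and 10.80 in control cells, with no overlap of the groups. These 3 calls became 1 or 2 without any single array at 1 mM.

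Of 21 tested myogenic transcription factors 4 fell and 0 rose (median -0.16), against 1.25% lower and 0.240% higher over all genes. Mef2c, which acts with the MyoD family on muscle promoters, read 5.81 and 5.37 in knockdown cells, against 7.62 and 7.88 in control cells (-2.17 ± 0.18). Myogenin (Myog), the differentiation factor, read 8.62 and 8.70 in knockdown cells, against 9.60 and 9.87 in control cells (-1.07 ± 0.15, adjusted p = 0.0190). Tead4, which binds M-CAT elements, changed by -1.22 and Tbx15, a T-box factor of glycolytic fibres, by -1.09. A dimmer second probe set of Mef2c read 2.12 in knockdown cells and 3.16 in control cells. The 4 falls became 2 without control replicate 1 or knockdown replicate 1 at 1 mM, and 1 without control replicate 2 or knockdown replicate 2.

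In energy metabolism 1 or 2 genes fell in each of 5 lists, whose medians ranged from -0.31 to 0.02. Over all genes 1.25% fell, and counts of 1 or 2 in lists of this size are too few to set against that share. Pygm was the 1 call among 18 tested glycogen genes (median -0.31). Of 28 tested glycolytic genes 2 fell, the muscle enolase Eno3 (-1.30) and muscle phosphofructokinase Pfkm (-1.31), and the list median was -0.01. Of 44 tested nuclear oxidative phosphorylation subunits 2 fell, Cox8b (-1.75) and Cox6a2 (-0.73), both isoforms of cytochrome c oxidase found in muscle, with a median of -0.05. Cd36 was called out of 32 fatty acid genes (median 0.02). Among 11 genes of creatine, adenylate kinase and oxygen buffering, Mb and the creatine kinase Ckm (-1.63) fell. Cox8b and Cox6a2 were not called in a fit without any 1 of the 4 arrays at 1 mM. Eno3 was called in 6 of the 8 fits without 1 array, and Pfkm in 1. A second, dim probe set of Ckm differed by -0.09.

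**Figure D4:**
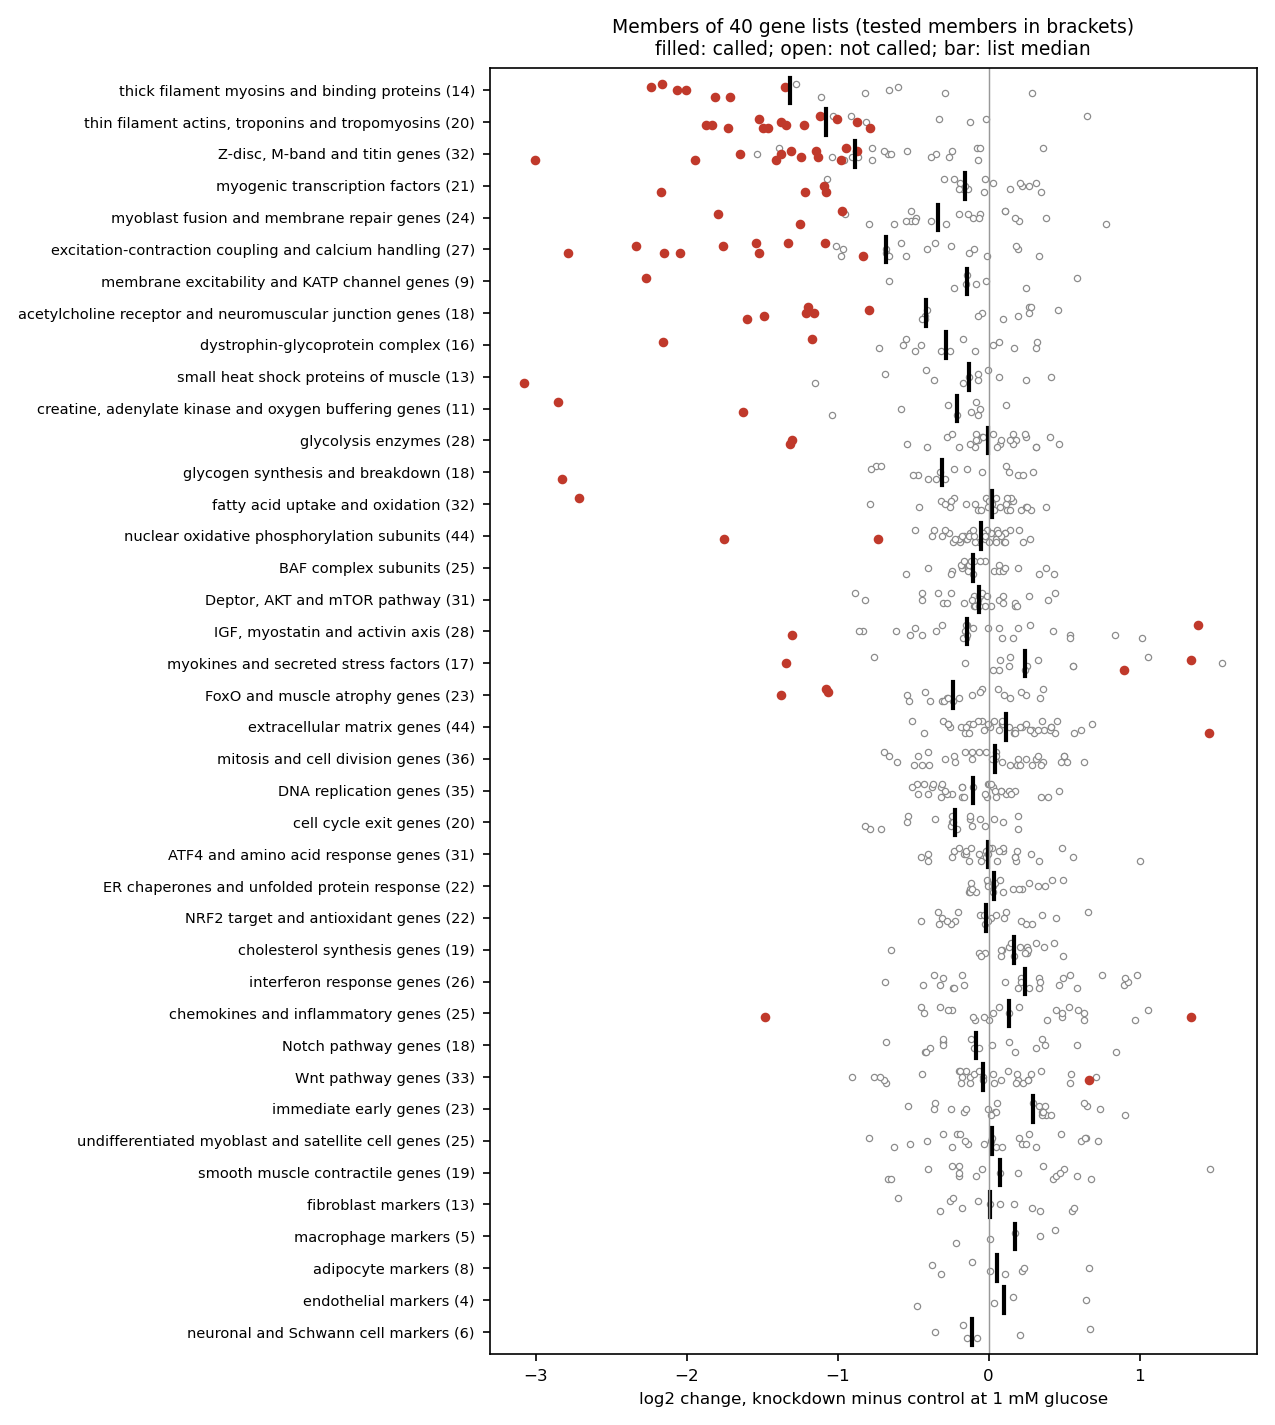
Log2 change at 1 mM glucose, knockdown minus control (x axis), of every tested member of 40 gene lists (rows, with the number tested), one point per gene. Filled points were called and bars are list medians. The medians of the 3 sarcomere lists and the coupling list lie between -1.31 and -0.68, those of the metabolic lists between -0.31 and 0.02.

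Among the 32 genes that rose, the median change was 1.00. Slfn2, a Schlafen family gene, read 5.01 and 5.35 in knockdown cells, against 3.40 and 3.28 in control cells (1.84 ± 0.19, adjusted p = 0.00583), the largest rise. Dthd1, which encodes a death domain protein, read 5.04 and 5.26 in knockdown cells, against 3.64 and 3.68 in control cells (1.49 ± 0.13) and was the only rise called whichever array was left out. Postn, the matrix protein periostin, read 9.64 and 10.12 in knockdown cells, against 8.74 and 8.10 in control cells (1.46 ± 0.26, adjusted p = 0.0499), and it was not called once any of the 8 arrays was left out. It was the 1 call among 44 tested extracellular matrix genes (median 0.12). Igfbp2, an insulin-like growth factor binding protein, changed by 1.39, Capn6, a calpain-like protein, by 1.34 and Ccl2, a monocyte chemokine, by 1.34. Nrg1, a ligand of ErbB receptors, changed by 1.10, while its receptor Erbb3 fell as given above. The other largest rises were P2rx3, Defa40, Ctla2a, Arap2, Mgam, Nt5e, Ecm2 and Adgrd1, between 1.01 and 1.53, of which P2rx3, Defa40 and Mgam lay at a log2 level under 3 in control cells.

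Secreted and signalling genes were called in small numbers, where 1.25% of all genes tested fell and 0.240% rose. Among 28 tested genes of the IGF, myostatin and activin list, Igfbp2 rose and Fst, the activin antagonist follistatin, changed by -1.30. Among 17 tested myokines and stress factors, Ccl2 and Angptl4 (0.89) rose and Fndc5 (-1.34) fell. Il33 (-1.48) was the lower call beside Ccl2 among 25 chemokine and inflammatory genes. Cxcl13, a chemokine outside that list, was called lower as well (-1.46, named after its value was seen). Fzd1 (0.67), a Wnt receptor, was the 1 call of 33 Wnt genes. In the FoxO and atrophy list 3 of 23 fell, the ubiquitin ligases Trim63 (-1.37) and Fbxo40 (-1.06) and Myog, which is also a myogenic factor. Fndc5, Fbxo40 and Fzd1 were not called once any 1 of the 8 arrays was left out.

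Apart from the target Smarcd3, whose shared probe set was called and is not counted here, the BAF complex subunits gave no calls by limma. The Deptor, AKT and mTOR genes gave none either. BAF subunits ranged from -0.54 to 0.43 over 25 genes (median -0.10), with Arid1b at -0.40 and Smarca2 at 0.43. The 31 Deptor, AKT and mTOR genes had a median of -0.07. Deptor read 7.55 and 7.83 in knockdown cells, against 8.33 and 8.69 in control cells, with the knockdown arrays below the control arrays, and its difference of -0.82 ± 0.17 did not pass the threshold (adjusted p = 0.0742). Of the 40 lists, 19 with 388 tested entries had no call, with medians from -0.22 to 0.29, where 1.50% of all genes tested were called. At an unadjusted p under 0.05 there were 2115 genes (15.9%) over all tested. In the cell cycle exit list (median -0.22) Btg1 was at -0.78 and Cdkn2c at -0.82. In the immediate early list (median 0.29) Fosl2 was at -0.53 and Nr4a3 at 0.74, and in the interferon list (0.24) Oasl2 was at 0.92 and Usp18 at 0.90.

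The lists of stress response and lipid synthesis genes also held no call. They do not hold every such gene. Outside them the disulfide isomerase Pdia5 (0.74) and the lipid transporter Abca1 (-1.07) were called, both named after their values were seen. The amino acid response list had a median of -0.0036, with Cth, which makes cysteine, at 0.49 and the lipoprotein receptor Vldlr at 1.00. The 22 tested chaperone and unfolded protein response genes had a median of 0.03, with Edem1 at 0.38 and Manf at 0.42. The 22 NRF2 genes centred on -0.01, with the haem oxygenase Hmox1 at 0.45 and Gpx3 at 0.66, and 19 cholesterol and lipid synthesis genes on 0.17, with Srebf1 at -0.65 and Fasn at 0.43. Among 18 Notch genes (median -0.08) the ligands Jag2 and Jag1 differed by -0.68 and 0.58. None of the list members named here passed the threshold.

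Markers of other cell types and of undifferentiated cells had no called member at 1 mM, where 1.50% of all genes tested were called. Lists this short would often hold no call at that share, so the absence of calls says little about cell types. The 25 tested myoblast and satellite cell genes averaged 6.22 and 6.31 in knockdown cells and 6.22 and 6.24 in control cells, with 0 called. Nes differed by -0.79 (adjusted p = 0.0591) and Fgfr1 by 0.65. The 13 fibroblast markers averaged 6.86 and 6.93 in knockdown cells and 6.90 and 6.84 in control cells, and the 19 smooth muscle genes 6.67 and 6.66 against 6.53 and 6.54, with 0 called in either. Cnn1, a smooth muscle calponin, differed by 1.46 ± 0.27 (adjusted p = 0.0522) and Des by -0.66 ± 0.13 (adjusted p = 0.0604). Of these 19 genes, 9 had a negative change at 1 mM. At 10 mM 3 of the smooth muscle genes were called higher, Cnn1 among them at 2.28 (adjusted p = 0.0235). The 5 tested macrophage markers averaged 3.67 and 3.84 in knockdown cells and 3.61 and 3.61 in control cells, the 8 adipocyte markers 4.59 and 4.54 against 4.54 and 4.47, the 4 endothelial markers 2.15 and 3.09 against 2.42 and 2.63, and the 6 neuronal and Schwann cell markers 3.71 and 3.98 against 3.72 and 3.92. Mitosis and DNA replication genes also had 0 calls, with medians of 0.04 and -0.10. In a bulk culture fewer differentiated cells and less of a transcript per cell cannot be told apart, and the part of either in the falls above was not tested.

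The knockdown change at 10 mM glucose comes from other arrays than the change at 1 mM. Those arrays did enter the replicate spread behind the calls at 1 mM. Calling thus favoured genes with close replicates at 10 mM, so the shares without overlap given here are no independent test. There limma called 150 genes (1.13%), 57 higher (0.428%) and 93 lower (0.699%), with 102 (0.766%) changed by at least 2-fold and 1807 (13.6%) at an unadjusted p under 0.05. Of the 167 genes lower at 1 mM, 146 (87.4%) lay wholly below the control arrays at 10 mM, where 21.6% of all genes did, and 58 were called there (34.7% of the 167, 62.4% of the 93). Of the 32 genes higher at 1 mM, 26 lay wholly above the control arrays at 10 mM, against 24.1% of all genes, and 8 were called (25% of the 32, 14.0% of the 57). None was called in opposite directions. The 167 genes had a median change of -1.31 at 1 mM and -0.83 at 10 mM, and the 32 had 1.00 and 0.44. These genes were chosen by their values at 1 mM, so the medians are no test of a difference between the levels. Hspb7 read 5.85 and 5.24 in knockdown cells, against 7.21 and 7.42 in control cells at 10 mM (-1.77, adjusted p = 0.0278), and the target probe set 3.90 and 4.49 in knockdown cells, against 6.27 and 6.09 in control cells (-1.98, adjusted p = 0.0171). Atp2a1 read 7.23 and 7.12 in knockdown cells, against 8.24 and 8.75 in control cells and was not called there (adjusted p = 0.0501). Mb changed by -2.85 at 1 mM and -2.21 at 10 mM, Fst by -1.30 and -2.25, and Trim63 by -1.37 and -0.10. At 10 mM 11 genes were called without control replicate 1 at 10 mM, and 0 without control replicate 2 or without either knockdown replicate at 10 mM.

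**Figure D5:**
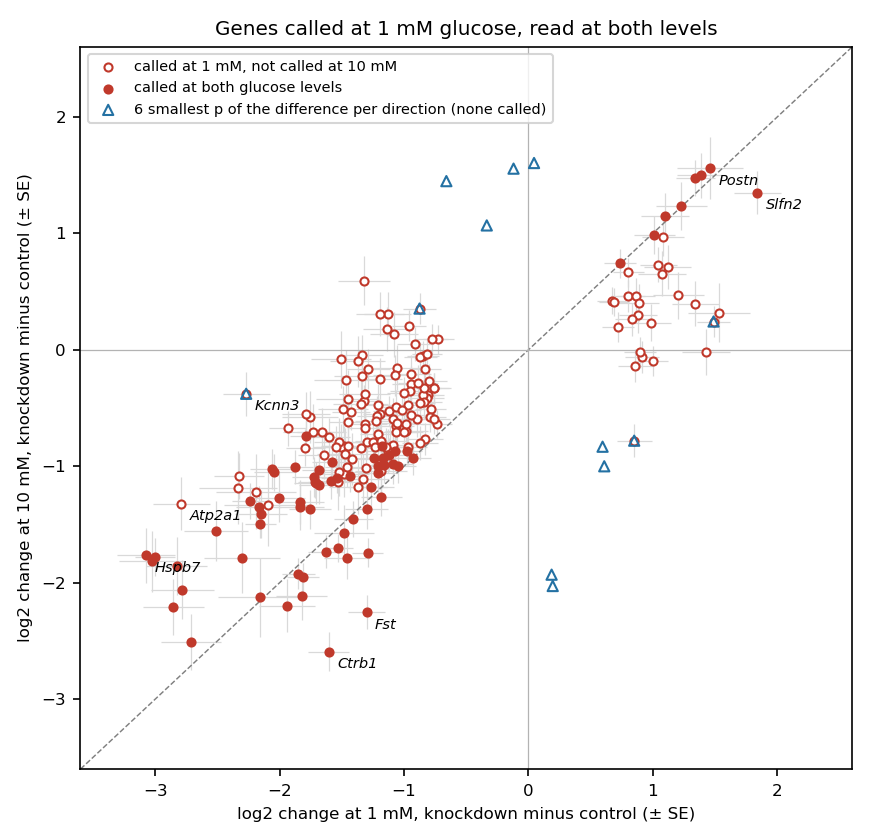
Log2 change, knockdown minus control, at 1 mM (x axis) and at 10 mM glucose (y axis) for the 199 genes called at 1 mM, one point per gene with bars of ± SE. Filled points were also called at 10 mM, triangles are the 6 genes per direction with the smallest p of the difference between the levels, whether or not they are among the 199, and the dashed line marks equal change. The 167 falls have a median of -1.31 at 1 mM and -0.83 at 10 mM.

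The difference between the 2 knockdown effects was tested directly, as the effect at 1 mM minus that at 10 mM. Limma called 0 genes, with 1049 (7.88%) at an unadjusted p under 0.05, and 1 gene with a mean-dependent prior, the thrombospondin Thbs1, which is named here after its values were seen. Its knockdown change was -0.15 at 1 mM and 0.93 at 10 mM. The smallest p values belonged, for a positive difference, to Iqgap3, Rabggtb, Best3, Macrod1, Dthd1 and Trp53i11, and for a negative one to Tns4, Fgf5, Trabd2b, Kcnn3, Serpinb9e and Slc41a3, none of them called for the difference. Kcnn3 changed by -2.27 at 1 mM and -0.38 at 10 mM (difference -1.89, unadjusted p = 0.000157). Dthd1 changed by 1.49 and 0.24, with all 4 arrays at 10 mM at a low level. The typical 95% interval of such a difference reached 0.574 to either side. Differences of up to 2.22 (Trp53i11) and -2.11 (Fgf5) did not pass the threshold, so differences of this size could go uncalled.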

How the data were processed

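The deposited values are log2 expression, 1 per probe set and array, which the authors made with RMA in affy (per the submitters' processing notes, without versions). RMA puts arrays on a common distribution and compresses dim signals, and the number of arrays limits precision. Of 41345 probe sets, 23521 had 1 gene in the platform annotation, 1814 several and 16010 none. Each of 22180 genes was read from its brightest single-gene probe set (Smarcd3 from the shared one), and genes below the 40th percentile of mean level were left out, leaving 13308. Limma 3.58.1 in R 4.3.3 (lmFit, eBayes) fitted 4 group means over 8 arrays, with 4 residual and 3.36 prior degrees of freedom, two-sided; scripts were tested on simulated data. Named genes were Smarcd1, Smarcd2, Smarcd3 and Deptor, the 15 largest called changes per direction (predicted genes, small RNAs and receptors of smell skipped), up to 5 called members per list (2 by p where none was called) and 6 per direction for the difference. The members and the 40 gene lists (1015 genes, 855 tested) were chosen with earlier results of these data known. Motifs were counted with Python 3.11.15. Alternatives covered centring, filters, the prior, arrays used, probe set choice, the replicate block and each array left out.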

Additional observations from a re-analysis of the deposited data

Results flagged for a closer look

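Probe sets with no gene in the platform annotation entered no comparison above. Among 7785 of them bright enough to be fitted together with the genes, 11 (0.141%) were called at 1 mM glucose by limma, 6 lower and 5 higher in knockdown cells. They were listed because they carry a signal in data outside the main measurement. In the same fit 53 of 13308 genes were called.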

How the results depend on the processing

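With the replicate number as a block, 134 genes were called at 1 mM (126 shared with the 199), 27 sarcomere genes and 73 genes at 10 mM. Arrays of the same number did not deviate together (r = -0.0172 at 1 mM, -0.0385 to 0.108 over all pairs of groups). With 2 arrays per group this shows no strong shared shift, and it cannot settle whether the numbers pair the samples. The count at 1 mM was 437 (129 higher) with a 60th percentile filter, 581 (188 higher) with a mean-dependent prior, 22 on the 4 arrays alone, and 30 to 129 with 1 array left out. The last 2 of these settings fit fewer arrays. Sarcomere falls numbered 6 on the 4 arrays and 6 to 27 with 1 array left out. At 10 mM the count was 69 without the filter, 291 with the 60th percentile filter, 461 with the mean-dependent prior, 6 on 4 arrays and 0 to 76 with 1 array left out. The difference between glucose levels gave 1 call with the mean-dependent prior. As choices made after seeing the data, leaving out genes with a group mean under 3 gave 170 calls and 29 sarcomere falls, and fitting probe sets with several genes or none as well gave 53 (51 lower) and 9. At 1 mM the target stayed called in every planned setting that tested that level, between -2.50 and -2.74 with 1 array left out. Of the 199, 28 were called whichever array was left out (27 lower) and 16 of these also in the 8 other planned settings. Among the named genes that were not called, 3 changed sign with 1 array left out. For the log2 change at 1 mM the lowest and highest values were -0.080 and 0.17 for Trabd2b, -0.31 and 1.60 for Tek and -0.081 and 0.47 for Trp53i11, the lowest each without knockdown replicate 2 at 1 mM, and Trabd2b was also at -0.04 without control replicate 1. No called gene that is named above changed sign. The cause of these changes was not tested. With 2 arrays per group, small differences were not detectable.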

Other observations

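Outside the 40 lists, 123 of the 199 genes called at 1 mM remained, and the following were picked after their values were seen. Several are known from muscle. Kelch proteins were among them, with Klhl31 at -1.51 and Klhl30 at -1.29 (-0.41 by its dimmer probe set), beside the listed Klhl41 at -1.52 and Klhl40 at -1.37. Cavin4, a muscle caveolar protein, changed by -1.58 and the membrane protein Tmem182 by -1.68. Prkaa2, the alpha2 catalytic subunit of the energy sensor AMPK, changed by -1.43, the related kinase Sik1 by -1.18, the splicing factor Rbm24 by -1.19 and the deaminase family member Apobec2 by -1.21. Spats2 changed by -1.85 at 1 mM and -1.92 at 10 mM, and its fall at 1 mM was called in every planned setting that tested that level.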
